A study of Mus musculus with 6 samples.

Results

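Semaphorins, plexins, neuropilins, Eph receptors and ephrins are the main families of cell-surface and secreted cues that tell cells where to move and which neighbours to adhere to or avoid. The 53 genes described here were every gene of the deposited table, which lists 18152 genes, whose symbol places it in one of these families. They comprised 7 class 3 semaphorins, 13 membrane-bound semaphorins, 2 neuropilins, 9 plexins, 9 EphA receptors, 5 EphB receptors, 5 ephrin-A genes and 3 ephrin-B genes. Genes entered the set by symbol alone, but the set was chosen with earlier results of these data known.

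RNA-seq was performed on the inner enamel epithelium (IEE), the layer of the enamel organ that folds to shape the cusps and later forms ameloblasts, of the mandibular first molar (MM1) of mouse embryos at E18.5. The control group, labelled WT, held 3 libraries from *Kdf1* fl/fl mice, and the cKO group, labelled Kdf1 deletion, held 3 libraries from *K14-Cre;Kdf1* fl/fl mice. Both groups carry the floxed *Kdf1* alleles on a C57BL/6J background, so that the cKO mice differ by the *K14-Cre* transgene, which is driven by the keratin 14 promoter and acts in all epithelia that use it, not in the IEE alone. The IEE was cut from frozen head sections by laser capture microdissection. The labels number the libraries as biological replicates but do not say how many animals each one holds, and p values measure only the spread between these libraries, which may be technical.

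Semaphorins bind plexins, whose cytoplasmic domain acts on small GTPases and the cytoskeleton. Class 3 semaphorins are secreted and most need a neuropilin as co-receptor, whereas the membrane-bound classes bind plexins directly. Eph receptors are receptor tyrosine kinases whose ligands are themselves held at the membrane, the ephrin-A proteins by a lipid anchor and the ephrin-B proteins by a transmembrane segment, and signals can run in both directions. Together these families keep tissue compartments apart and guide nerves and vessels, and *Sema3a* from the dental mesenchyme is known to hold nerve fibres away from the early tooth germ.

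*Kdf1* itself had 0, 1 and 0 counts in the cKO libraries and 52.5, 44.3 and 52.7 CPM in the control libraries (counts relative to the library total after TMM scaling). Library totals ran from 14713918 to 16675133 estimated counts. For a gene with no count in a library, up to 3 counts, or 0.182 to 0.198 CPM, are possible from counting error alone. Epithelial markers were present in every library (*Krt5*, 2129 to 4777 TPM, a level scaled by transcript length and library total). The ameloblast gene *Amelx* had 4017, 15804.5 and 32209 TPM in the control libraries and 9.45, 173 and 699 TPM in the cKO libraries. It was thus lower in every cKO library and also varied several-fold within each group. Markers of dental papilla, endothelium and immune cells were present as well. In such bulk samples fewer cells of a type and less RNA per cell cannot be told apart.

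Of the 53 genes, 49 passed the filter on low counts and were tested within the 14131 genes of the table that passed. The comparison asked which of these cues differ in the IEE when epithelial *Kdf1* is absent. *Sema3e* fell, and it was the only member past the criterion, a log2 fold change (log2FC) of 1 or more in either direction together with an adjusted p no higher than 0.05, by the quasi-likelihood test of edgeR after Benjamini-Hochberg adjustment, where 0.432% of all genes tested passed and 0.29% passed as lower. The deviations of same-numbered libraries correlated with r = 0.324 and 0.499 for numbers 2 and 3, but with 0.135 for number 1. Control replicate 2 with cKO replicate 1 had 0.144, so the pairing is not clear for number 1. With the replicate number as a block, 7 members passed in edgeR, 4 higher and 3 lower in cKO libraries, against 6.09% of all genes (4.16% higher, 1.92% lower). DESeq2 without a block called 9 members, 6 higher and 3 lower, against 6.94% of all genes (5.05% higher, 1.88% lower), and these 9 included all 7 of the block. The members called in both were *Sema3e*, *Plxna4* and *Plxnc1* on the lower side and *Sema6a*, *Sema6b*, *Epha3* and *Ephb2* on the higher side, with *Sema3g* and *Nrp1* added in DESeq2. Without replicate 1 of the cKO group, 5 members passed in DESeq2 and 5 with the block, and none in edgeR without it, where 1 gene was left over the whole table. *Sema3e*, *Plxna4*, *Plxnc1* and *Sema6a* were in both sets of 5, with *Sema3g* in DESeq2 and *Ephb2* with the block.

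The 3 cKO values of a gene lay all above or all below the 3 control values in 24 of the 49 members on the CPM scale, against 30.7% of all genes tested. Of the 24, 14 were higher, against 14.5% of all genes, and 10 were lower, against 16.2%. This split depends on the scale, since 14 members were higher and 5 lower without overlap in TPM, where 28.1% of all genes did not overlap. Scaling by library size with no TMM factor gave 15 higher and 7 lower, where the share of all genes was not computed. The median log2FC was 0.13 over the members and −0.00426 over all genes tested.

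**Figure D1:**
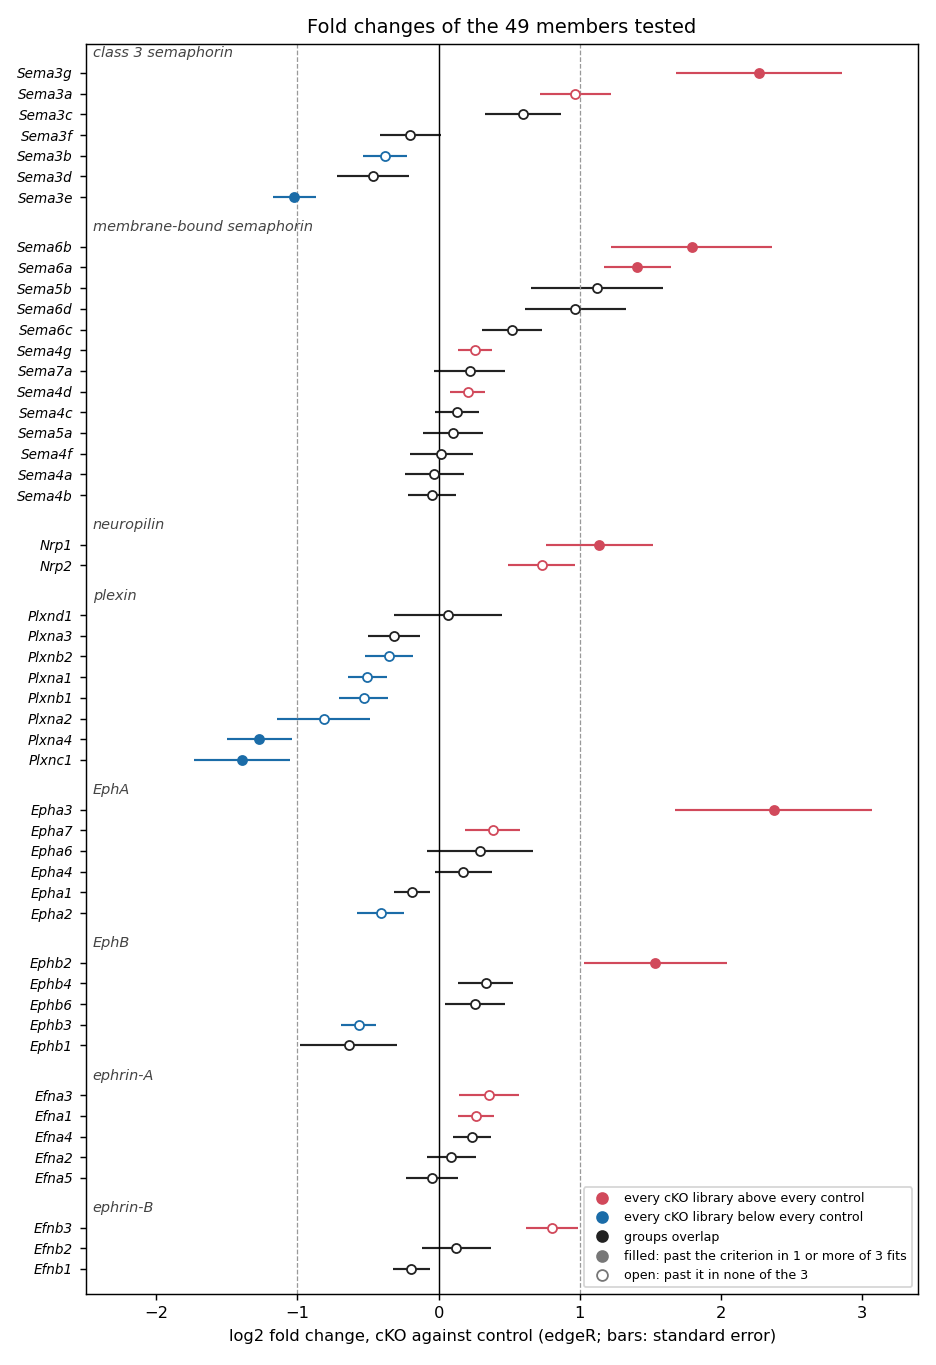
Log2FC values of the 49 members tested, cKO against control, from edgeR (x axis), with standard errors as bars and genes grouped by class (y axis). Of the 8 plexins, 7 lie left of 0, whereas both neuropilins and all 4 class 6 semaphorins lie right of it.

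RefSeq promoter windows (GRCm38.p6, 250 bases before to 50 after each listed start) were matched by gene identifier to 47 of the 53 members, which have 61 listed starts. The windows of 4 members with 1 listed start that passed both with the block and in DESeq2 are shown, 2 with lower and 2 with higher levels in cKO libraries. Members on 1 chromosome were left out of this choice, so that the 4 do not stand for all members called. The capitals mark GC boxes, the letters GGGCGG or their reverse complement, and overlapping matches run together.
Sema3e promoter, chr5:14025026-14025325, plus strand: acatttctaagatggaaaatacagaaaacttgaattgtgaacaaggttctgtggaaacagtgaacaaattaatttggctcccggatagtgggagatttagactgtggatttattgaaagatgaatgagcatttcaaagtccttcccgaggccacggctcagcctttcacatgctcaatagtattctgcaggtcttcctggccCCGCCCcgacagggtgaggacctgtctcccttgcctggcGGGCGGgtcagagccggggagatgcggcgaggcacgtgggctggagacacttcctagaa
Plxnc1 promoter, chr10:94944796-94945095, minus strand: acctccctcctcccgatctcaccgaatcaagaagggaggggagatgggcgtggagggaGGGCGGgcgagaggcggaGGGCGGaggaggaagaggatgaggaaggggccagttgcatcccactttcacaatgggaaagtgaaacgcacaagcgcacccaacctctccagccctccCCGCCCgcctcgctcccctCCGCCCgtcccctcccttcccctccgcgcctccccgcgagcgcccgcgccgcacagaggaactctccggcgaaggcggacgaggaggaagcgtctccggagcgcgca
Epha3 promoter, chr16:63864126-63864425, minus strand: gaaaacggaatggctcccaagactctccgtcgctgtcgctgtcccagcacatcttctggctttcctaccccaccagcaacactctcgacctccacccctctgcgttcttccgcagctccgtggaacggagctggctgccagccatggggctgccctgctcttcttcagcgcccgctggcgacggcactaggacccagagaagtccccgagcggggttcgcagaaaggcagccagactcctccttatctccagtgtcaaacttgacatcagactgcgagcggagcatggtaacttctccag
Ephb2 promoter, chr4:136835963-136836262, minus strand: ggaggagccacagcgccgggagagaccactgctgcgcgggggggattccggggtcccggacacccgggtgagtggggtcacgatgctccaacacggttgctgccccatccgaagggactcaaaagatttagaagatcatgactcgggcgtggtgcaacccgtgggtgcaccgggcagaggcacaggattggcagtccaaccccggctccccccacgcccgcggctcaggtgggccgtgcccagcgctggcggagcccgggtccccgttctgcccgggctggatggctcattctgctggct
The windows of the lower genes *Sema3e* and *Plxnc1* hold 2 and 4 GC boxes and those of the higher genes *Epha3* and *Ephb2* hold 0. With 2 windows on each side, no pattern by direction can be read from them. Over all members, 46 of 61 windows (75.4%) hold a GC box on either strand, against 35.7% of the 32851 windows in the table, and their median GC content was 64% against 52.7%. A TATA box, TATAAA on either strand, is in 1 of the 61 windows (1.64%, against 13.6% of all windows), and CACCTG, a form of the E box, in 8 (13.1%, against 20.2%). These letters describe the reference sequence only and no binding was measured.

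Among the class 3 semaphorins, *Sema3d* and *Sema3f* were the most abundant per transcript length, with 61.5 ± 2.46 and 44.1 ± 8.92 TPM in control libraries (SD, n = 3), and *Sema3g* the least with 0.927 ± 0.148 TPM. The control ranges of *Sema3e*, *Sema3c* and *Sema3a* overlapped from each one to the next, so their order is not resolved. *Sema3e*, whose protein binds *Plxnd1* without a neuropilin, had 29.9, 35.6 and 35.5 CPM in the control libraries and 18.8, 15.7 and 15.2 CPM in the cKO libraries. All cKO libraries lay below all control libraries by a gap wider than the spread within either group. Its mean fell from 33.6 ± 3.27 to 16.6 ± 1.93 CPM (SD, n = 3 per group), with log2FC −1.02 (SE 0.15). Adjusted p values were 0.0498 in edgeR, 0.0195 with the block and 1.28e-05 in DESeq2 (Benjamini-Hochberg), and each unblocked edgeR fit that left out 1 library kept the direction, from −1.10 to −0.95, but none of these 6 fits met the criterion. *Plxnd1*, its receptor, had 259, 290.0 and 233 CPM in the control libraries and 382, 316 and 119 CPM in the cKO libraries. The receptor thus ranged over both sides of the control values, with cKO replicate 3 the lowest of all 6 libraries and cKO replicate 1 the highest, and its log2FC of 0.07 (SE 0.38) was smaller than the spread between replicates and −0.08 with the block.

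*Sema3g*, a ligand that acts through *Nrp2* and is known from vessels, had 2.07, 2.42 and 2.02 CPM in the control libraries and 20.9, 5.09 and 5.53 CPM in the cKO libraries. It was higher in each cKO library, yet replicate 1 stood far above the other two. The log2FC was 2.27 (SE 0.59), and 1.30 without replicate 1 of the cKO group. Adjusted p values were 0.0884 in edgeR, 0.0545 with the block and 0.00234 in DESeq2. *Sema3a*, which repels axons through *Nrp1* and class A plexins, had 27.9, 20.7 and 16.2 CPM in the control libraries and 54.5, 37.0 and 35.3 CPM in the cKO libraries, again without overlap. Its log2FC of 0.97 (SE 0.25) stayed under the fold limit of 1, with adjusted p values of 0.0891 in edgeR, 0.0134 with the block and 0.00788 in DESeq2. *Sema3b* was lower in every cKO library on the CPM scale, from 26.0 ± 2.17 to 19.9 ± 2.64 CPM with a log2FC of −0.38 (SE 0.16), but its groups overlapped in TPM.

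*Sema3d*, the most abundant of the class, had 213, 216 and 247 CPM in the control libraries and 128, 124 and 237 CPM in the cKO libraries. Replicates 1 and 2 of the cKO group were well below the controls, whereas replicate 3 was among them, and the log2FC was −0.47 (SE 0.26) with an adjusted p of 0.305 (edgeR). With 1 library left out it ran from −0.82, without cKO replicate 3, to −0.27, without cKO replicate 2. *Sema3f*, the main ligand of *Nrp2*, had 105, 73.7 and 78.7 CPM in the control libraries and 93.4, 57.0 and 74.0 CPM in the cKO libraries. Its groups overlapped, with a log2FC of −0.20 (SE 0.22), as did those of *Sema3c*, with 0.60 (SE 0.27).

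Both neuropilins were higher in every cKO library. *Nrp1*, the co-receptor of *Sema3a* and also of vascular endothelial growth factor, had 19.6, 28.9 and 23.6 CPM in the control libraries and 86.9, 40.1 and 31.6 CPM in the cKO libraries. *Nrp2* was the more abundant, with 32.9 ± 6.91 against 7.32 ± 1.75 TPM in control libraries (SD, n = 3), and had 104, 133 and 105 CPM in the control libraries and 263, 152 and 154 CPM in the cKO libraries. In both genes the cKO libraries lay above the controls, and replicate 1 was the highest. The log2FC values were 1.14 (SE 0.38) for *Nrp1* and 0.73 (SE 0.24) for *Nrp2*. Without replicate 1 of the cKO group they were 0.59 and 0.44. For *Nrp1* the adjusted p was 0.135 in edgeR, 0.140 with the block and 0.0302 in DESeq2, and for *Nrp2* 0.130 in edgeR, 0.108 with the block and 0.0424 in DESeq2, where the fold limit was not met.

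These 2 genes and *Sema3g* are known to be used by vessels, and the 9 endothelial markers were on the higher side too. All 9 had a positive log2FC with a median of 0.93, and 5 of them were higher in every cKO library, against 14.5% of all genes tested. Their summed level was 203, 227 and 164 TPM in the control libraries and 667, 354 and 218 TPM in the cKO libraries, so cKO replicate 1 was the highest here too and cKO replicate 3 lay within the control range, and the defining markers *Pecam1*, *Cdh5* and *Kdr* were present in all libraries. In cKO replicate 3, by contrast, *Sema3g*, *Nrp1* and *Nrp2* stayed above every control. The part of endothelial RNA in the values of *Sema3g*, *Nrp1* and *Nrp2* was not tested.

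**Figure D2:**
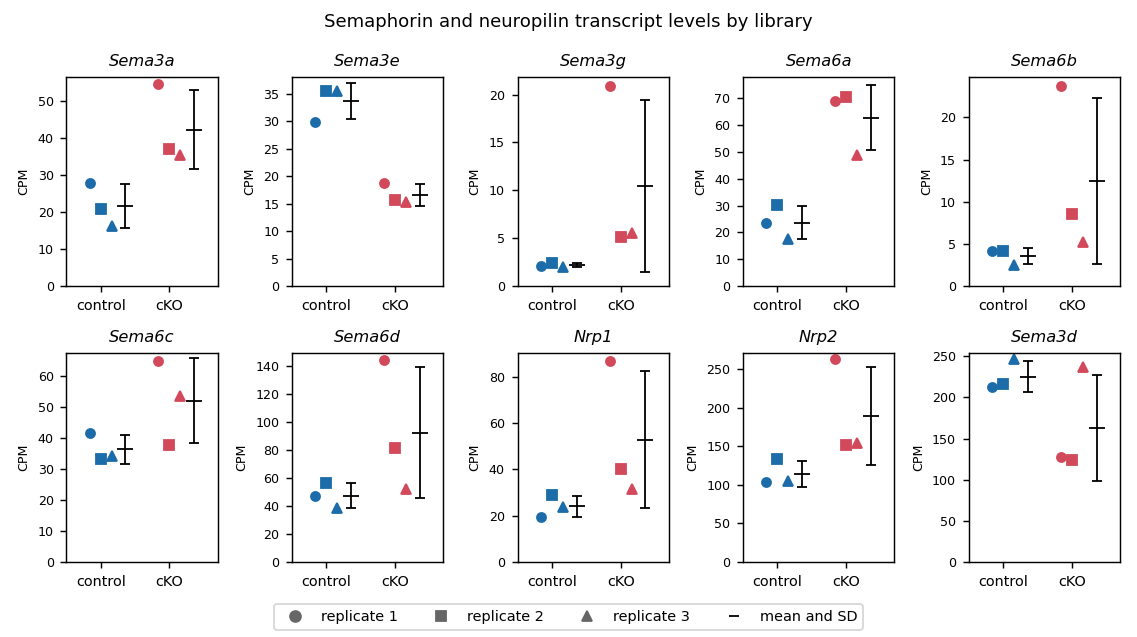
Levels of 8 semaphorin and 2 neuropilin genes in CPM (y axis, each panel from 0) in the control and cKO libraries, with symbols for the replicate number and bars for the mean and SD. The *Sema3e* values of 15.2 to 18.8 CPM in cKO libraries lie below all control values, and cKO replicate 1 stands apart in *Sema3g*, *Sema6b*, *Sema6d* and *Nrp1*.

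Of the 13 membrane-bound semaphorins, 11 had a positive log2FC. All 4 class 6 genes had positive log2FC values, which held in every alternative scaling and with each library left out, whereas those of the 6 class 4 genes lay between −0.04 and 0.26. The class 5 genes *Sema5a* and *Sema5b* had 0.10 and 1.12. *Sema6a*, a ligand of *Plxna2* and *Plxna4* that guides axons and migrating neurons, had 23.6, 30.1 and 17.4 CPM in the control libraries and 69.2, 70.6 and 48.8 CPM in the cKO libraries. Every cKO library exceeded every control, and leaving out any 1 library gave log2FC values of 1.23 to 1.61. The mean went from 23.7 ± 6.33 to 62.9 ± 12.2 CPM (SD, n = 3 per group), with log2FC 1.41 (SE 0.24). The adjusted p of 0.0556 in edgeR missed the threshold, and was 0.00526 with the replicate block and 1.09e-05 in DESeq2.

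*Sema6b*, which also binds *Plxna4*, had 4.14, 4.12 and 2.53 CPM in the control libraries and 23.7, 8.49 and 5.20 CPM in the cKO libraries. All cKO values were higher, but the level was low and replicate 1 was the highest by far, so that the log2FC of 1.79 (SE 0.57) became 0.94 without it. The adjusted p values of *Sema6b* were 0.125 in edgeR, 0.0443 with the block and 0.0165 in DESeq2. *Sema6d*, a ligand of *Plxna1*, had 47.1, 56.1 and 38.3 CPM in the control libraries and 144, 81.1 and 51.8 CPM in the cKO libraries. Its cKO replicate 3 lay within the control range, and its log2FC was 0.97 (SE 0.36) with an adjusted p of 0.160 (edgeR), and 0.51 without cKO replicate 1. *Sema6c* had 41.8, 33.1 and 34.1 CPM in the control libraries and 64.9, 37.7 and 53.8 CPM in the cKO libraries, likewise with overlap, and a log2FC of 0.52 (SE 0.21).

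*Sema5a*, which can attract or repel axons, was the most abundant membrane-bound semaphorin with 53.5 ± 6.77 TPM in control libraries (SD, n = 3), followed by *Sema4g* with 44.3 ± 7.14 TPM, and the control ranges of these neighbours overlapped. *Sema5a* had 276, 337 and 346 CPM in the control libraries and 300.3, 275 and 454 CPM in the cKO libraries. The cKO libraries lay on both sides of the controls, and the log2FC was 0.10 (SE 0.21). *Sema4g* had 113, 108 and 91.1 CPM in the control libraries and 119, 121 and 133 CPM in the cKO libraries, all higher in the cKO group by a small margin, with a log2FC of 0.26 (SE 0.12) and an adjusted p of 0.237 (edgeR). *Sema4d*, the ligand of *Plxnb1*, was also higher in each cKO library, 51.5 ± 1.09 CPM in control and 59.4 ± 7.12 CPM in cKO libraries (SD, n = 3 per group), with a log2FC of 0.21 (SE 0.12).

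The remaining class 4 genes and *Sema7a*, a lipid-anchored ligand of *Plxnc1*, had overlapping groups. *Sema4c*, a ligand of *Plxnb2*, had a log2FC of 0.13 (SE 0.16) and *Sema7a* one of 0.22 (SE 0.25). *Sema4a*, *Sema4b* and *Sema4f* had −0.03, −0.04 and 0.02, values whose sign changed with the scaling or the test. *Sema5b* had a low level, 1.77 to 7.33 CPM over all libraries, with a log2FC of 1.12 (SE 0.47), or 0.60 without replicate 1 of the cKO group.

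Plexins, the receptors of these ligands, were on the lower side. Of the 8 tested, 7 had a negative log2FC and 6 were lower in every cKO library on the CPM scale, against 16.2% of all genes tested, with a class median of −0.52. The 7 negative genes kept their sign in all scalings and in each fit without 1 library. In TPM, 3 plexins were lower without overlap (*Plxna2*, *Plxna4* and *Plxnc1*), against 12.7% of all genes tested. None passed in edgeR without the block, while *Plxna4* and *Plxnc1* passed with the block and in DESeq2.

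*Plxnc1*, the receptor of *Sema7a*, had 129, 124 and 229 CPM in the control libraries and 43.9, 51.4 and 88.1 CPM in the cKO libraries. The highest cKO library was below the lowest control, and replicate 3 was the highest in both groups. Its log2FC was −1.39 (SE 0.34), the most negative of the 8 plexins, with adjusted p values of 0.0823 in edgeR, 0.00422 with the block and 0.00148 in DESeq2. *Plxna4*, a receptor for *Sema6a* and *Sema6b* and for *Sema3a* with *Nrp1*, had 45.7, 54.0 and 78.7 CPM in the control libraries and 20.7, 24.0 and 29.2 CPM in the cKO libraries in a pattern without overlap, and replicate 3 was again the highest in both groups. It differed by a log2FC of −1.27 (SE 0.23), and −1.14 without replicate 1 of the cKO group. Adjusted p values were 0.0637 in edgeR, 0.00695 with the block and 0.000110 in DESeq2. The ligands *Sema6a* and *Sema6b* and the receptor *Plxna4* thus differed in opposite directions in the same libraries.

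*Plxnb2*, which binds class 4 semaphorins such as *Sema4c*, was the most abundant plexin and made up 38.4% of the summed plexin TPM in control and 40.2% in cKO libraries. It had 830.1, 684 and 687 CPM in the control libraries and 647, 613 and 467 CPM in the cKO libraries. The groups did not overlap but nearly met, and the log2FC of −0.35 (SE 0.17) had an adjusted p of 0.249 (edgeR) and was −0.20 without cKO replicate 3. *Plxna1*, the next in level, had 501, 439 and 426 CPM in the control libraries and 365, 286 and 312 CPM in the cKO libraries. It was lower in each cKO library, with a log2FC of −0.50 (SE 0.14) that stayed under the fold limit and adjusted p values of 0.102 in edgeR, 0.0551 with the block and 0.0212 in DESeq2.

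*Plxnb1*, the receptor of *Sema4d*, had 334 ± 38.6 CPM in control and 231 ± 45.2 CPM in cKO libraries (SD, n = 3 per group), a log2FC of −0.53 (SE 0.17). Adjusted p values of this gene were 0.127 in edgeR, 0.0414 with the block and 0.0605 in DESeq2. *Plxna2*, the other receptor of *Sema6a*, had 112, 121 and 243 CPM in the control libraries and 91.4, 68.2 and 112 CPM in the cKO libraries. Control replicate 3 was the highest and the nearest values of the groups almost touched, and the log2FC of −0.81 (SE 0.33) became −0.37 without that library. *Plxna3*, with −0.32 (SE 0.18), had overlapping groups. *Plxnb3*, a receptor of *Sema5a*, was not tested, as it had 0, 1 and 0 counts in the control and 36, 6 and 0 counts in the cKO libraries.

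Summed over the class, plexin transcripts amounted to 556, 520.1 and 495 TPM in control and 513, 402 and 324 TPM in cKO libraries. These sums overlapped between the groups, in contrast to those of the membrane-bound semaphorins, with 305, 317 and 263 TPM in control and 429.5, 327 and 351 TPM in cKO libraries. The epithelial markers, which define the tissue that was captured, were on the lower side too. Of 9 epithelial markers, 8 had a negative log2FC (median −0.83) and 4 were lower in every cKO library, against 16.2% of all genes tested. Their sum without the enamel genes *Amelx* and *Ambn* was 8193, 6662 and 9650.1 TPM in control and 4383, 3945 and 6767 TPM in cKO libraries, with cKO replicate 3 just inside the control range. With those genes it was 12375, 23295 and 43481 TPM in control and 4496, 4299 and 7727 TPM in cKO libraries. *Shh* was the gene with a positive value. *Epcam* lay within the control range in every cKO library, with 402, 252 and 264 TPM in control and 304, 281 and 334 TPM in cKO libraries. By library, replicate 3 of each group had the lowest plexin sum and the highest epithelial sum. Single plexins differed in this on the CPM scale. *Plxna2*, *Plxna4* and *Plxnc1* were highest in replicate 3 of each group, and *Plxna1*, *Plxna3*, *Plxnb1* and *Plxnb2* in replicate 1 of each group. *Plxnd1* was highest in control replicate 2 and cKO replicate 1. The part of the epithelial share in the plexin values was not tested.

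**Figure D3:**
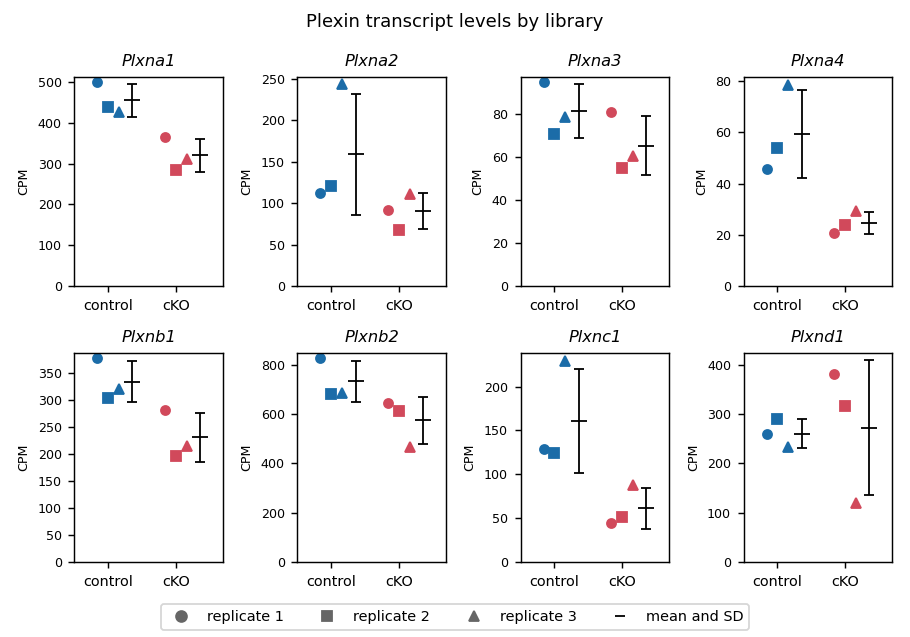
Levels of the 8 plexins tested in CPM (y axis, each panel from 0) in control and cKO libraries, with symbols for the replicate number and bars for the mean and SD. *Plxna4* (20.7 to 29.2 CPM in cKO libraries) and *Plxnc1* lie clear of the controls, and *Plxnd1* spans both sides.

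In the Eph families the direction varied from receptor to receptor. *Epha2* and *Epha1*, 2 receptors known from epithelia, were the most abundant EphA genes with 58.4 ± 6.54 and 44.2 ± 6.57 TPM in control libraries (SD, n = 3), and their ranges touched. *Epha2* had 132, 115 and 111 CPM in the control libraries and 106, 71.0 and 92.7 CPM in the cKO libraries. All cKO libraries were lower, by a narrow margin to replicate 1, and the log2FC was −0.41 (SE 0.17) with an adjusted p of 0.185 (edgeR), while the groups overlapped in TPM. Without cKO replicate 2 it was −0.23. *Epha1* had 84.4, 67.5 and 71.0 CPM in the control libraries and 65.6, 59.9 and 70.0 CPM in the cKO libraries, with overlap and a log2FC of −0.19 (SE 0.13).

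*Epha3*, a receptor of ephrin-A5 that is known from mesenchymal cells, had 7.28, 16.5 and 2.27 CPM in the control libraries and 72.4, 38.9 and 24.0 CPM in the cKO libraries. The cKO libraries were all higher, although the values varied several-fold within each group. Its share of the summed EphA TPM was 1.94% in control and 9.86% in cKO libraries. The log2FC was 2.38 (SE 0.70), and 1.86 without replicate 1 of the cKO group. In *Epha3* the adjusted p values were 0.113 in edgeR, 0.0300 with the block and 0.00285 in DESeq2. *Epha7* was higher in each cKO library, 60.6 ± 15.4 CPM in control and 79.0 ± 5.75 CPM in cKO libraries (SD, n = 3 per group), with a log2FC of 0.38 (SE 0.19), or 0.20 without control replicate 3. *Epha4*, which binds ephrins of both classes, had 0.18 (SE 0.20) with overlap.

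*Epha6* was barely above the filter with at most 1.89 CPM and had a log2FC of 0.29 (SE 0.38). The 3 EphA genes that were not tested had few counts. *Epha5* had 1, 1 and 0 counts in control and 7, 5 and 2 in cKO libraries, *Epha8* had 3, 1 and 1 in control and 0 in every cKO library, and *Epha10* had 3, 2 and 5 in control and 1, 1 and 2 in cKO libraries. At this depth no difference can be read from them.

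Of the EphB receptors, *Ephb4*, the receptor of ephrin-B2 in veins, was the most abundant with 55.0 ± 9.84 TPM in control libraries (SD, n = 3), ahead of *Ephb3* with 33.2 ± 3.27 TPM. *Ephb4* had 142, 137 and 111 CPM in the control libraries and 210.1, 149 and 132 CPM in the cKO libraries. The groups overlapped, with cKO replicate 1 alone far above the controls, and the log2FC was 0.33 (SE 0.19), or 0.13 without it. *Ephb3*, a receptor that helps to sort cells at epithelial boundaries, had 82.7, 69.4 and 73.6 CPM in the control libraries and 51.3, 55.1 and 46.0 CPM in the cKO libraries. Every cKO library was lower and both groups were tight. The log2FC of −0.57 (SE 0.12) fell short of the fold limit, and the adjusted p was 0.0714 in edgeR, 0.0420 with the block and 0.00482 in DESeq2.

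*Ephb2*, its close relative, differed the other way, with 25.3, 21.1 and 11.9 CPM in the control libraries and 99.1, 44.2 and 25.8 CPM in the cKO libraries. The lowest cKO value was just above the highest control value, the groups overlapped in TPM, and replicate 1 was highest in both groups. Its log2FC was 1.54 (SE 0.51), or 0.87 without replicate 1 of the cKO group. The adjusted p values of *Ephb2* were 0.135 in edgeR, 0.0155 with the block and 0.0157 in DESeq2. *Ephb1* and *Ephb6*, which lacks kinase activity, had overlapping groups with log2FC values of −0.64 (SE 0.34) and 0.26 (SE 0.22).

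The 5 ephrin-A genes had log2FC values between −0.05 and 0.36. *Efna1*, the main ligand of *Epha2*, was the most abundant ephrin-A gene with 130.2 ± 19.4 TPM in control libraries (SD, n = 3), or 53.9% of the class. It had 106, 85.5 and 85.0 CPM in the control libraries and 106, 106 and 119 CPM in the cKO libraries. The cKO values began at the level of the highest control, and the log2FC was 0.26 (SE 0.13) with an adjusted p of 0.250 (edgeR). *Efna4* had 31.7, 27.2 and 26.3 CPM in the control libraries and 34.2, 30.9 and 35.1 CPM in the cKO libraries, with a slight overlap and a log2FC of 0.24 (SE 0.13). *Efna3*, *Efna2* and *Efna5* had 0.36 (SE 0.21), 0.09 (SE 0.17) and −0.05 (SE 0.18), the last with a sign that changed with the scaling.

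The least abundant of the ephrin-B genes in control libraries, *Efnb3*, a ligand of *Ephb2*, *Ephb3* and *Epha4*, had 44.2, 52.6 and 33.1 CPM in the control libraries and 71.8, 85.1 and 69.6 CPM in the cKO libraries. All cKO libraries were higher, and replicate 2 was highest in both groups. The mean went from 43.3 ± 9.79 to 75.5 ± 8.41 CPM (SD, n = 3 per group), with log2FC 0.80 (SE 0.19) that stayed under the fold limit, and 0.85 without replicate 1 of the cKO group. For *Efnb3* the adjusted p values were 0.0771 in edgeR, 0.0176 with the block and 0.00405 in DESeq2. Its share of the summed ephrin-B TPM was 18.1% in control and 28.8% in cKO libraries.

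*Efnb1*, the most abundant with 82.3 ± 7.78 TPM in control libraries (SD, n = 3), had 161, 140.4 and 144 CPM in the control libraries and 149, 125 and 115 CPM in the cKO libraries. Its groups overlapped and the log2FC was −0.19 (SE 0.13). *Efnb2*, known from arteries, had 92.6, 83.0 and 84.4 CPM in the control libraries and 136, 72.1 and 75.6 CPM in the cKO libraries. Replicate 1 of the cKO group was above the controls and the other 2 cKO libraries were below them, so that the log2FC of 0.13 (SE 0.25) became −0.21 without replicate 1.

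**Figure D4:**
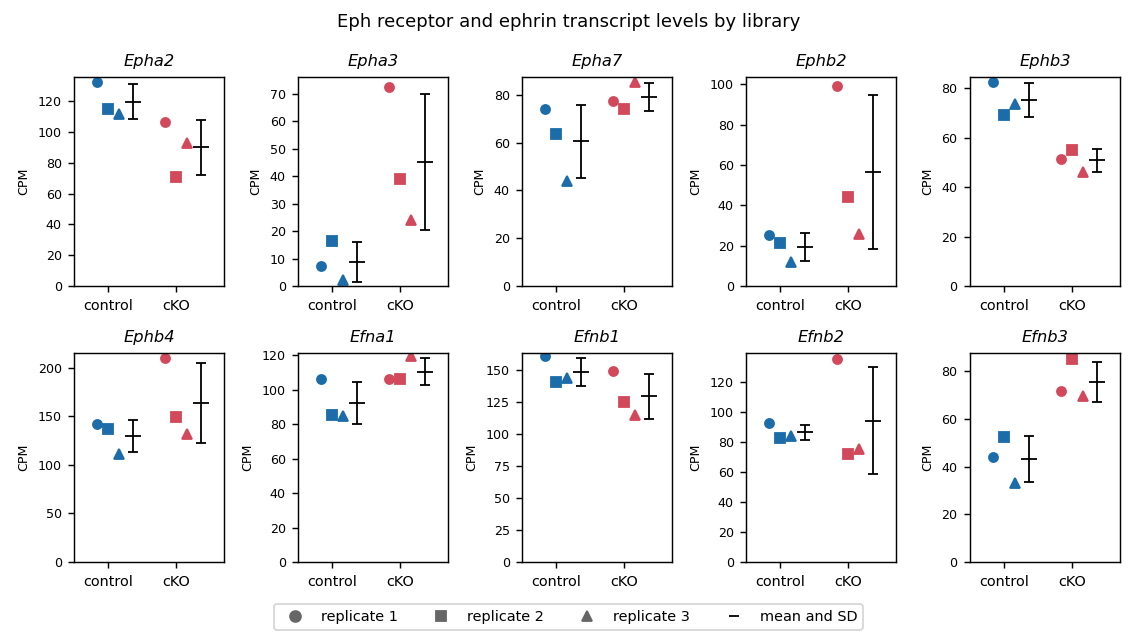
Levels of 6 Eph receptors and 4 ephrins in CPM (y axis, each panel from 0) in control and cKO libraries, with symbols for the replicate number and bars for the mean and SD. *Ephb3* (46.0 to 55.1 CPM in cKO libraries) lies below and *Efnb3* (69.6 to 85.1 CPM) above all controls, and cKO replicate 1 stands apart in *Efnb2*, *Ephb2* and *Ephb4*.

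Genes that act beside or downstream of these receptors were taken from 2 lists. Of 55 semaphorin and plexin partners tested, none passed the criterion in edgeR, where 12 had an unadjusted p of at most 0.05 (5 higher, 7 lower), against 24.5% of all genes. With the block 4 passed, 2 higher and 2 lower, against 6.09% of all genes, and in DESeq2 3 did, against 6.94%. *Itga1*, an integrin chain of the *Sema7a* receptor, went from 48.7 ± 9.79 to 22.1 ± 2.79 CPM with a log2FC of −1.14 (SE 0.19). *Micall1*, a relative of the plexin effectors of the Mical family, went from 298 ± 51.1 to 148 ± 24.4 CPM with −1.01 (SE 0.18). The adjusted p values of *Itga1* were 0.0542 in edgeR, 0.0102 with the block and 2.34e-05 in DESeq2, and those of *Micall1* 0.0597 in edgeR, 0.00952 with the block and 8.23e-05 in DESeq2. *Dpysl4*, of the collapsin response mediators that relay *Sema3a*, was higher in all cKO libraries with 1.57 (SE 0.47), as was *Tyrobp*, an adaptor of myeloid cells, with 1.71 (SE 0.46), or 1.10 without cKO replicate 1.

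Of 52 ephrin and Eph partners tested, *Cldn4*, a tight junction protein that *Epha2* and ephrin-B1 can bind, passed in edgeR. It fell from 23.4 ± 10.9 to 2.34 ± 1.26 CPM (SD, n = 3 per group) with a log2FC of −3.32 (SE 0.49) and an adjusted p of 0.0498 (edgeR). Of all genes tested, 0.432% passed in edgeR and 0.29% passed as lower. At an unadjusted p of at most 0.05 in edgeR, 8 of the 52 were higher and 9 lower, against 13% and 11.6% of all genes. With the block 2 of the 52 passed, against 6.09% of all genes, and in DESeq2 3, against 6.94%. *Grb10*, an adaptor of Eph and insulin receptors, had 58.9, 120.1 and 51.8 CPM in the control libraries and 613, 304 and 153 CPM in the cKO libraries. It was higher in every cKO library, with a log2FC of 2.21 (SE 0.55) and adjusted p values of 0.0842 in edgeR, 0.0394 with the block and 0.000249 in DESeq2. *Adam12*, a metalloprotease, had 9.66, 12.5 and 8.65 CPM in the control libraries and 95.0, 29.2 and 19.7 CPM in the cKO libraries, with replicate 1 far above the other cKO libraries and a log2FC of 2.22 (SE 0.58), or 1.27 without it. Its adjusted p values were 0.0895 in edgeR, 0.0577 with the block and 0.000752 in DESeq2. The median log2FC was 0.01 in the first list and 0.07 in the second.

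Replicate 1 of the cKO group was the highest cKO library in 25 of the 49 members (51%), against 31.8% of all genes tested. Among the 12 members with a positive difference and an unadjusted p of at most 0.05 in edgeR it was the highest in 10, against 58.4% of all such genes. These 12 of 49 stand beside 13% of all genes tested that were higher at this p. On the lower side, 9 members had such a p, against 11.6% of all genes, and 5 of the 9 were plexins.

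Markers of some other cell types also had mostly positive log2FC values. Of 13 dental papilla and odontoblast genes tested, 10 had a positive and 3 a negative log2FC, and 7 were higher in every cKO library, against 14.5% of all genes tested. The sum of the list was 1814, 8516 and 5731 TPM in control and 5892, 4755 and 4499 TPM in cKO libraries, and that of its 8 transcription factors 108, 283 and 93.9 TPM in control and 668, 692 and 315 TPM in cKO libraries. Immune markers summed to 60.4, 125 and 79.7 TPM in control and 375, 168 and 112 TPM in cKO libraries, with 8 of 9 genes positive. Neuronal and Schwann cell markers summed to 225, 286 and 428 TPM in control and 135, 173 and 225 TPM in cKO libraries, most of it *Tubb3* and *Stmn2*, while *Nefl* and *Nefm* were near 0. Bone markers summed to 267, 1192 and 1045 TPM in control and 541, 366 and 765 TPM in cKO libraries, with 1 of 5 genes positive. Those of skeletal muscle summed to 4.26, 2.04 and 1.22 TPM in control and 6, 6.64 and 2.52 TPM in cKO libraries, with *Myod1* and *Ttn* near 0. The part of cells outside the epithelium in the higher levels of *Epha3*, *Ephb2*, *Sema3a*, *Sema6a* and *Sema6b* was not tested.

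**Figure D5:**
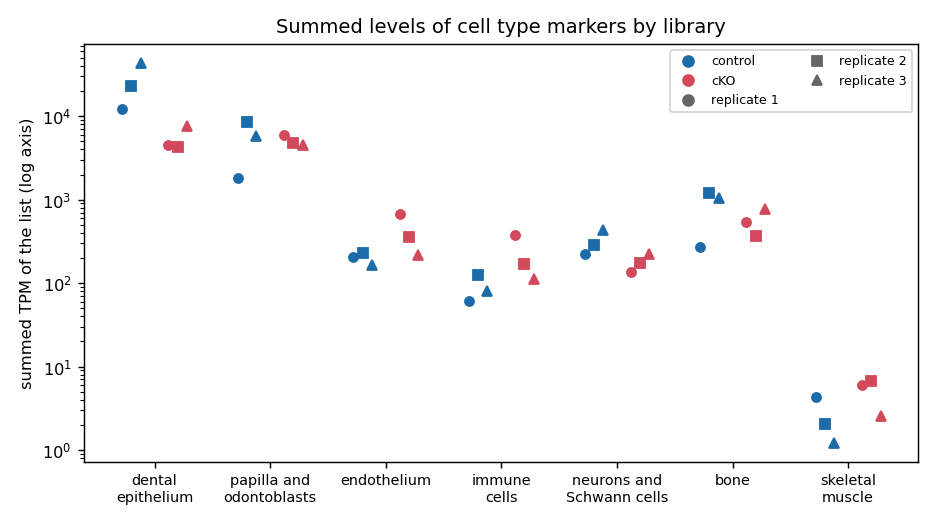
Summed TPM of 7 lists of cell type markers (y axis, log scale) in each control and cKO library, with symbols for the replicate number. Epithelial sums are lower in all cKO libraries, whereas endothelial sums reach 667 TPM and immune sums 375 TPM in cKO replicate 1.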

How the data were processed

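The authors sequenced RNA from inner enamel epithelium of the MM1, taken by laser capture microdissection at E18.5, from 3 control and 3 cKO samples. The submitters' processing notes name BWA 0.7.12, Picard 2.6.0 and StringTie, and the genome build, the annotation and the counting program are not given in the sources used here. The deposited table holds, per gene and library, estimated counts (10.9% to 11.5% of them not whole), TPM computed by the authors and deposited FPKM values, which were not used. Reads of overlapping or near-identical genes may have been split in a way that cannot be checked. No libraries were left out.

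Estimated counts were rounded, filtered with filterByExpr, scaled by TMM and tested in edgeR 4.0.16 (R 4.3.3) with the robust two-sided quasi-likelihood test over all 14131 genes that passed, with Benjamini-Hochberg adjustment. The criterion was a log2FC of 1 or more in either direction together with an adjusted p no higher than 0.05. The SE is the log2FC divided by the square root of F. CPM values use the same TMM factors. The scripts were tested on simulated data.

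Samples were grouped by their labels. The replicate numbers may pair the libraries, which is not clear for number 1. In these same data, deviations of same-numbered libraries from their group means correlated across genes with r = 0.135, 0.324 and 0.499 for numbers 1, 2 and 3. Of the other pairs, control replicate 2 with cKO replicate 1 had 0.144, above the same-numbered pair 1, and the remaining ones were negative. No label says what the number stands for, so a fit with it as a block was run beside the unblocked one. Further alternatives were DESeq2 1.42.0, voom and limma 3.58.1 on log2(TPM + 1) and log2(TPM + 0.1), other scalings and filters, other thresholds and the omission of each library.

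The members, the lists of partners and markers and the tests were chosen with earlier results of these data known. Values of every library are given for each member past the criterion in edgeR, with the block or in DESeq2, and for the 2 members of each class with the highest mean TPM. From each partner list at most 4 genes past the criterion in any of those fits are named. *Sema3a*, *Sema6c*, *Sema6d*, *Plxna2*, *Plxnd1*, *Efnb2* and the other members and markers named with values were chosen after their values were seen. Within-group correlations of log2 CPM were 0.950 to 0.980, and no library was a copy of another.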

Additional observations from a re-analysis of the deposited data

How the results depend on the processing

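The number of members past the criterion (1 in edgeR) was 9 in DESeq2, 7 with the replicate block and 9 with the replicate block in DESeq2. It was 0 in limma-voom, in limma on log2(TPM + 1) and log2(TPM + 0.1), with DESeq2 size factors, upper quartile scaling or library size alone in edgeR and with at least 10 counts in every library, and 2 with no filter. Leaving out 1 library gave 0 to 3, the highest without cKO replicate 3. With the fold limit kept, an adjusted p limit of 0.1 in edgeR gave 5 and an unadjusted limit of 0.05 gave 10. The shares of all genes at these limits were not computed. Without cKO replicate 1, chosen after seeing the data, DESeq2 gave 5 and the replicate block 5. *Sema3e*, the member called in edgeR, kept its direction throughout, with adjusted p values from 1.28e-05 to 0.229. The calls over the whole table shifted too. They numbered 61 in edgeR, 980 in DESeq2, 860 with the block, 1118 with it in DESeq2 and 7 with DESeq2 size factors in edgeR. Leaving out 1 library gave 465 calls without cKO replicate 3 and 1 to 16 in the other fits. Without cKO replicate 1 there were 573 in DESeq2 and 836 with the block. The cause of these shifts was not tested.

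Semaphorin and plexin partners past the criterion (0 in edgeR) numbered 3 in DESeq2, 4 with the replicate block, 4 with it in DESeq2 and 1 with no filter. With the fold limit kept, they numbered 3 at an adjusted p of 0.1 and 4 at an unadjusted p of 0.05 in edgeR. Leaving out 1 library gave 0 to 2. Without cKO replicate 1 there were 2 in DESeq2 and 4 with the block. Ephrin and Eph partners (1 in edgeR) numbered 3 in DESeq2, 2 with the replicate block, 3 with it in DESeq2, and 0 in limma-voom, with DESeq2 size factors, with library size alone and with at least 10 counts. At an adjusted p of 0.1 or an unadjusted p of 0.05 in edgeR, with the fold limit kept, they numbered 3. The shares of all genes at these limits were not computed. Leaving out 1 library gave 0 to 3, and DESeq2 and the block without cKO replicate 1 gave 3 and 3. These partner counts stand beside the shifts over the whole table given above.

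On the CPM scale the count of members without overlap stayed between 22 and 31, and the median log2FC between 0.08 and 0.22. The share of all genes without overlap was not computed for these settings. With 1 library left out, any gene more easily shows no overlap, so those counts are not comparable with the count from all libraries. Of the 49 members, 40 kept their sign in every alternative counted here. DESeq2 and the block without cKO replicate 1 were not part of this count. In DESeq2 without cKO replicate 1, 27 members had a positive log2FC, against 30 in edgeR with all libraries. *Efna5* turned to 0.0136 on log2(TPM + 1), 0.0138 on log2(TPM + 0.1) and 0.0138 with library size alone, and *Sema4b* to 0.0175, 0.0179 and 0.0182 in the same 3 settings. *Plxnd1* turned to −0.085 with the replicate block, −0.0696 with it in DESeq2, −0.0944 in limma-voom, −0.0289 on log2(TPM + 1) and −0.0325 on log2(TPM + 0.1). *Sema4a* turned to 0.0126 with the replicate block in DESeq2, 0.0528 on log2(TPM + 1), 0.0558 on log2(TPM + 0.1), 0.00424 with upper quartile scaling and 0.0242 with library size alone. *Sema4f* turned to −0.00915 with the replicate block and −0.0108 in limma-voom. With 1 library left out, log2FC values ranged from −0.0363 to 0.26 for *Efna2*, −0.20 to 0.0915 for *Efna5*, −0.21 to 0.32 for *Efnb2*, −0.0084 to 0.33 for *Epha4*, −0.25 to 0.44 for *Plxnd1*, −0.18 to 0.21 for *Sema4a*, −0.16 to 0.0946 for *Sema4b*, −0.16 to 0.25 for *Sema4f* and −0.13 to 0.26 for *Sema5a*. Among the scalings, library size alone moved the median of all genes most, by 0.0575. At these depths members under about 1 CPM could not be compared.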
